A study of Homo sapiens with 4 samples.

Results

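The genes described here are 10 genes of extracellular matrix and of the myofibroblast, collagens left out, of 20037 protein-coding genes on the assembled chromosomes. They were taken by name: FN1, THBS1 and POSTN encode matrix glycoproteins, LOX and LOXL2 cross-linking enzymes, MMP2 and MMP9 proteases, TIMP1 a protease inhibitor, and ACTA2 and TAGLN contractile proteins. All 10 matched a RefSeq gene on GRCh38.p14, the coordinates of hg38. Every peak that overlapped a gene body or the 5 kb on either side of it was counted, over 456 kb of windows in all.

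The lists come from ChIP-seq of FOXK1, a forkhead transcription factor, in the human line HK-2, which is immortalised proximal tubular epithelium. The cells received 10 ng/ml TGF-β1 for 24 h or stayed untreated, with 1 FOXK1 immunoprecipitate and 1 input sequenced in either case. The protocol mentions transfection, but no sample label names a transfected agent. The peak lists measure binding and not RNA, so the labelled cell type could not be checked against marker expression. The TGF-β1 list held 439136 peaks and the untreated list 381700, and each peak had the authors' pileup height, the number of reads or fragments stacked at its highest point. Sequencing depth is unknown and there are no replicates. Heights and counts from both lists are therefore given side by side, they compare 2 libraries rather than 2 conditions, and no test or p-value was possible.

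Fibrosis is the build-up of matrix in place of functional tissue. TGF-β1 is the best known cytokine of this process, and in kidney its targets include fibronectin and the enzymes that cross-link and remodel matrix. Myofibroblasts, the contractile matrix-producing cells of scars, are recognised by smooth muscle actin. Forkhead factors bind the core TGTTTAC, and FOXK1 is known for control of autophagy and glycolysis genes.

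The bases just before the annotated start of transcription are shown for 5 genes, because peaks lay over or near some of these starts and not others. RefSeq start sequences were at hand for 6 of the 10 genes, and those of LOXL2, MMP2, MMP9 and TAGLN are not shown. Each sequence is the 250 bases upstream of a start, 5′ to 3′ on the strand of the gene (GRCh38.p14), and capitals mark matches to 6 motifs on either strand. The forkhead core was searched as TGTTTAC. The site bound by AP-1 was searched as TGACTCA. The CArG box of serum response factor was searched as CC, then 6 bases of A or T, then GG. Only exact matches were marked. The GC box of Sp1-like factors was searched as GGGCGG, and the CCAAT box by the letters of its name. The element that positions the start in some promoters was searched as TATAAA, and is called the TATA box.
ACTA2 outer start, chr10:88991338-88991587, minus strand: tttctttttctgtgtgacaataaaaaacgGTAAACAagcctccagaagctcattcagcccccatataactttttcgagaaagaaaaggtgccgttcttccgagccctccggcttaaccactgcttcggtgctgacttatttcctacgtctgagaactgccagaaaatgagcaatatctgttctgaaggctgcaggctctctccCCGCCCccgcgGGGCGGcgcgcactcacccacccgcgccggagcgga
ACTA2 inner start, chr10:88952774-88953023, minus strand: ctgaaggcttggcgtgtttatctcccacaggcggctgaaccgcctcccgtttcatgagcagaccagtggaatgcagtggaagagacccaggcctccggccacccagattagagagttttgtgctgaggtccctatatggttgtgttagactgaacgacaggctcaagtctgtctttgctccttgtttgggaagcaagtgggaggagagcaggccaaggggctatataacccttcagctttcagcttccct
FN1, chr2:215436069-215436318, minus strand: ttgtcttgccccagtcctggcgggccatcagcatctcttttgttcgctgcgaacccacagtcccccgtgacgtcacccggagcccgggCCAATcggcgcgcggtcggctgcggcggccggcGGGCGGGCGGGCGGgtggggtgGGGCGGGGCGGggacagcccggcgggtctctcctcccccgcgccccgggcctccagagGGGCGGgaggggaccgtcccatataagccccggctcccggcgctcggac
LOX outer start, chr5:122078260-122078509, minus strand: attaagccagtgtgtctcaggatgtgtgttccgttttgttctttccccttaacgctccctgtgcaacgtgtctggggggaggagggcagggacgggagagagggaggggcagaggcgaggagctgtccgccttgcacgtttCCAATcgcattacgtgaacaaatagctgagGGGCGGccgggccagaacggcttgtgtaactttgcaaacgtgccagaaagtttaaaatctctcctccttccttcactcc
THBS1, chr15:39580829-39581078, plus strand: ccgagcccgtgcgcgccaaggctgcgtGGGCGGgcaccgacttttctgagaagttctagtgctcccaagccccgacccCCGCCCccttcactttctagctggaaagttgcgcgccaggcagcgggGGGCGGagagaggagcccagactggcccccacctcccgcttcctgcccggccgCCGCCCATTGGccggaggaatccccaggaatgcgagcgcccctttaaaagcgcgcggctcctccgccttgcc
POSTN, chr13:37598769-37599018, minus strand: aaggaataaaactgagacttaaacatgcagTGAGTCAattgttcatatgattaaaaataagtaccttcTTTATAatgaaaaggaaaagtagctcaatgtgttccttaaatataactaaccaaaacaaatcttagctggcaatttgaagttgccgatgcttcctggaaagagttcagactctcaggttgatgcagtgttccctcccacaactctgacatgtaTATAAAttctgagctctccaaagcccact

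Capital runs in these sequences can join neighbouring matches, as in the GC boxes of FN1. The outer ACTA2 promoter held the single forkhead core among the 9 promoters of the 6 genes, as GTAAACA on the strand shown, 215 bases before the start. This match lay inside the peaks of both lists. Of 22183 promoters of protein-coding genes cut to the same length, 2.45% held such a core. The inner ACTA2 promoter had no exact match to any of the 6 motifs. Its stretches ccctatatgg and ccttgtttgg come close to the CArG pattern without meeting it. Near matches were not searched, so the promoter cannot be said to lack such elements. FN1 had 6 overlapping or close GC boxes and a CCAAT box, all under peaks of both lists, and THBS1 had 4 GC boxes and a CCAAT box, under no peak of either list. GC boxes were found in 53.7% and CCAAT boxes in 32.7% of all promoters. POSTN, at 36.4% G and C against a median of 62.0% over all promoters, held an AP-1 site and a pair of TATA boxes, motifs found in 3.44% and 9.01% of promoters. A match is a description of the letters and not a measured binding site.

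All 10 genes had at least 1 peak in both lists, as did 94.8% of all protein-coding genes in the TGF-β1 list and 94.7% in the untreated list, so a peak of any height did not set these genes apart. Their windows held 114 peaks in the TGF-β1 list and 101 in the untreated list, a ratio of 1.13 against 1.15 for the whole lists. This was 2.50 and 2.21 peaks per 10 kb, and over the windows of all protein-coding genes it was 1.73 and 1.51. The gene-by-gene median over the 10 genes was 2.37 and 2.15 peaks per 10 kb, against 1.80 and 1.61 over all genes. Most were low, as peaks of the whole lists were: 82.5% of the TGF-β1 peaks and 78.2% of the untreated peaks had a height of 7 or less. Their median height was 5 in the TGF-β1 list and 6 in the untreated list, against 5 over all peaks of either list.

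A strong peak is defined here as one at or above the height of the 10000th highest peak of its list. This height was 15 in the TGF-β1 list and 17 in the untreated list. In the windows, 4 of 114 TGF-β1 peaks and 6 of 101 untreated peaks were strong. In the whole lists it was 11342 of 439136 and 11072 of 381700. LOXL2 and THBS1 had a strong peak in the TGF-β1 list, 2 of 10 genes, against 29.9% of all protein-coding genes. LOXL2, THBS1 and ACTA2 had one in the untreated list, 3 of 10, against 31.1%. With 10 genes these shares have exact binomial 95% intervals of 2.52 to 55.6% and 6.67 to 65.3%, so they could not be told from the share of all genes. Nearest to the limits, the lowest strong peak had a height of 16 in the TGF-β1 list and 19 in the untreated list, and the highest peak below them had 14 and 15, both at FN1. A peak of height 10 or more was found at 6 genes in each list, FN1, THBS1, LOXL2, MMP2, MMP9 and ACTA2, against 52.8% and 60.4% of all genes. The median over the 10 genes of the highest peak was 13 and 12, against 10 and 12 over all protein-coding genes.

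**Figure D1:**
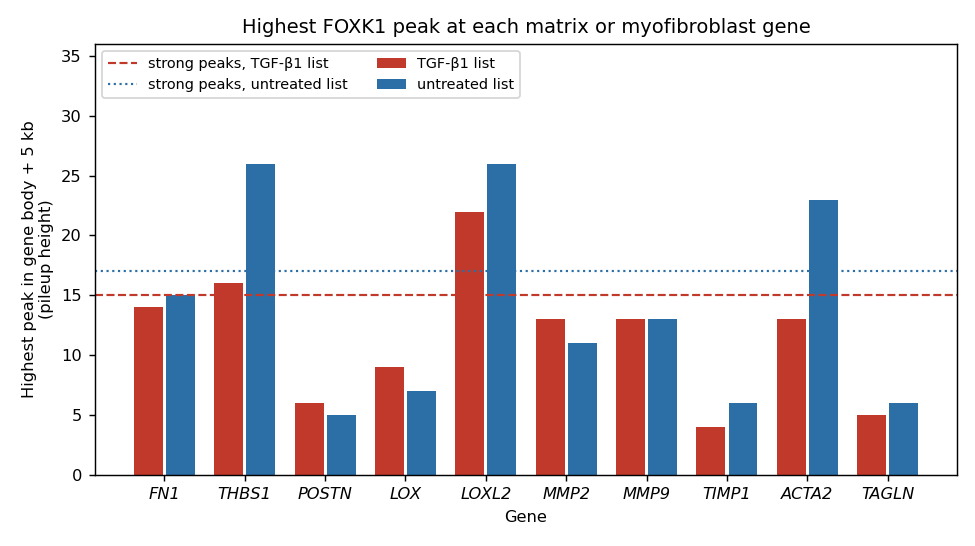
Highest pileup height in the gene body plus 5 kb for each of the 10 genes (bars, TGF-β1 list left and untreated list right), with dashed and dotted lines at the heights of 15 and 17 from which peaks count as strong in the TGF-β1 and untreated lists. At LOXL2 and THBS1 each bar passes the line of its own list, and POSTN, TIMP1 and TAGLN stay at 6 or less.

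Among the matrix glycoproteins, THBS1 had a strong peak in both lists, and FN1 and POSTN had none in either. FN1 encodes fibronectin, the glycoprotein on which other matrix proteins assemble, and lies on chromosome 2 from 215360865 to 215436068, on the minus strand. Its start was covered in both lists, by a TGF-β1 peak of height 13 (215434555 to 215436483) and an untreated peak of height 9 (215435759 to 215437525), which overlap each other. The same TGF-β1 peak also covered both annotated starts of FN1-DT, the divergent non-coding RNA, so that start peaks cannot be given to FN1 alone. The highest FN1 peak of each list lay elsewhere. In the TGF-β1 list it had a height of 14 and lay in the gene body (215409257 to 215411653), where the untreated list had peaks of 6 and 7. In the untreated list it had a height of 15 and lay 1112 bases inside the gene (215433453 to 215434956), where the TGF-β1 list had peaks of 8 and 13. None of the 4 was strong in its list. As high a window peak as that of FN1 was seen at 33.5% of protein-coding genes (TGF-β1 list) and 38.0% (untreated list).

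The FN1 window was covered by TGF-β1 peaks to a larger part than those of the other 9 genes. It had 29 peaks in the TGF-β1 list and 16 in the untreated list, a ratio of 1.81, against 1.19 for all peaks of chromosome 2. Of 4407 protein-coding genes with 30 or more peaks over both lists, 7.40% had a ratio at least as high and the median was 1.17. This comparison was chosen after the FN1 counts were seen. TGF-β1 peaks covered 26.0% of the FN1 window, as much as in 1.60% of protein-coding genes, and untreated peaks covered 12.1%, as much as in 20.5%. Of the 29 and 16 peaks, 5 and 2 were 1 kb or wider, a width reached by 3.58% of all TGF-β1 peaks and 3.98% of all untreated peaks. Of FN1 peaks, 10 of 29 and 12 of 16 overlapped a peak of the other list. Most were low, with a median height of 5 in the TGF-β1 list and 6 in the untreated list, against 5 in either whole list. The neighbouring gene ATIC (215312059 to 215368592) reaches into the lower-coordinate end of the window. TGF-β1 peaks of height 4, 4 and 5 lay in its span and no untreated peak of this window did, so these peaks cannot be given to FN1 alone. Whether depth or background shaped the coverage of the FN1 window was not tested.

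THBS1 encodes thrombospondin 1, a matricellular protein that can activate latent TGF-β, and lies on chromosome 15 from 39581079 to 39599466, on the plus strand. Its strong peak lay upstream of the start in both lists, with a height of 16 in the TGF-β1 list (39579141 to 39580102) and 26 in the untreated list (39579444 to 39580008). These peaks overlap, and their near edges are 977 and 1071 bases from the start. The TGF-β1 peak thus fell just within 1 kb of the start and the untreated peak just outside, a difference of edges at 1 site. Both also overlap the predicted protein-coding gene LOC124903470. Over the 250 bases before the start there was no peak in either list. The other THBS1 peaks had heights of 3 to 7 in the TGF-β1 list and 3 to 9 in the untreated list.

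POSTN encodes periostin, a matricellular protein of remodelling tissue, and lies on chromosome 13 from 37562585 to 37598768. Its 9 TGF-β1 peaks had heights of 3 to 6 and its 8 untreated peaks heights of 3 to 5. In each list 1 of these overlapped a peak of the other, a site within the gene with heights of 4 and 5. As high a window peak was seen at 83.9% of protein-coding genes (TGF-β1 list) and 91.7% (untreated list).

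The cross-linking enzymes oxidise lysines of collagen and elastin so that fibres become joined. LOXL2 held most of the strong peaks of the 10 genes, 3 of 4 in the TGF-β1 list and 4 of 6 in the untreated list. It is also the longest of the 10, at 107 kb on chromosome 8 from 23296897 to 23404120. At its lower-coordinate end a peak of height 22 in the TGF-β1 list (23296161 to 23297637) overlapped one of height 26 in the untreated list (23296133 to 23297779), and both reach into the neighbouring gene R3HCC1. A second group of peaks lay deep inside the gene, from 46.9 to 59.7 kb above that end, over the antisense non-coding gene LOXL2-AS1. Going up in coordinates, this group held TGF-β1 peaks of height 18, 5, 4, 13 and 13. In the untreated list the peaks overlapping the first of these had heights of 8 and 26, and those overlapping the others had 10, 5, 19 and 20, in the same order.

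Another LOXL2 site differed in height. A TGF-β1 peak of height 19 (23304918 to 23305383) overlapped an untreated peak of height 8 (23304162 to 23305243), and it was the only strong peak of the 10 genes whose counterparts in the other list were all below 10. At the higher-coordinate end the TGF-β1 list had 1 peak of height 12 (23403259 to 23405121), which overlapped untreated peaks of 8 and 9. Of LOXL2 peaks, 14 of 33 in the TGF-β1 list and 16 of 30 in the untreated list had a counterpart. Its highest peak was reached by 14.9% and 14.0% of protein-coding genes.

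LOX, lysyl oxidase, lies on chromosome 5 from 122063195 to 122078259 within the annotated span of SRFBP1, so that its peaks cannot be told apart from those of that gene. It had 7 TGF-β1 peaks of height 4 to 9 and 8 untreated peaks of height 5 to 7. Of these, 5 in each list overlapped. RefSeq gave 3 starts for LOX. At the outer start, a TGF-β1 peak of height 4 lay 39 bases upstream and an untreated peak of height 6 covered the start. Near both inner starts, a TGF-β1 peak of height 9 covered them and an untreated peak of height 6 ended 9 bases away from the nearer. All of these are in the range of heights in which most peaks of either list have no counterpart.

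**Figure D2:**
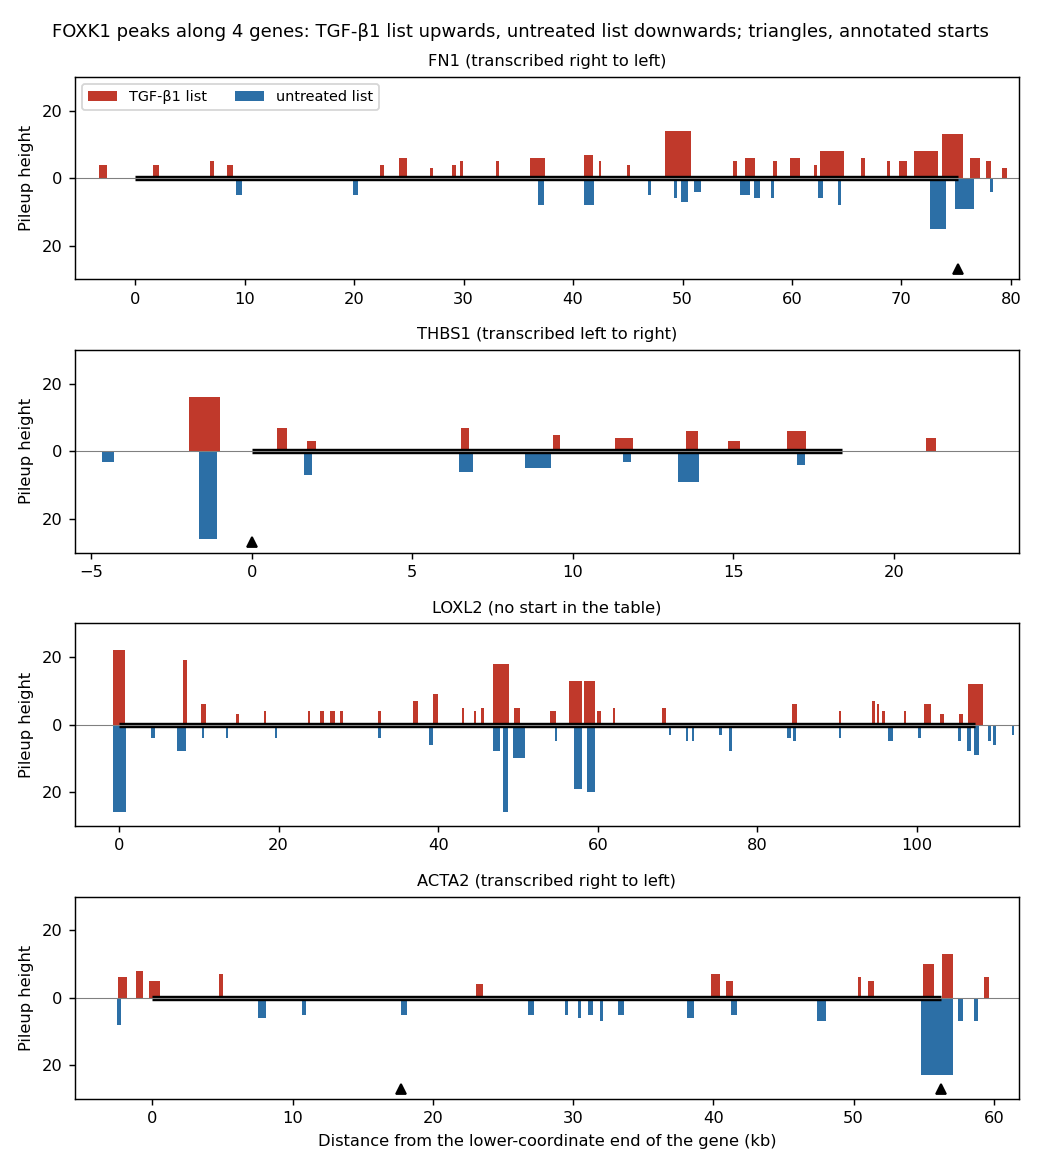
Peaks along FN1, THBS1, LOXL2 and ACTA2, placed by distance in kb from the lower-coordinate end of each gene (black bar), with pileup height upwards for the TGF-β1 list and downwards for the untreated list and triangles at annotated starts. LOXL2 has high peaks at its lower end and from 46.9 to 59.7 kb in both lists, and ACTA2 has a single untreated peak of 23 where the TGF-β1 list has peaks of 10 and 13.

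The gelatinases, proteases that cut denatured collagen and basement membrane, had no strong peak. MMP2 lies on chromosome 16 from 55478830 to 55506691 and had 5 TGF-β1 peaks and 6 untreated peaks. Its highest lay at 1 shared site in the gene body, with a height of 13 in the TGF-β1 list (55499945 to 55500443) and 11 in the untreated list (55500009 to 55500619). Its other peaks had heights of 5 to 7.

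MMP9 lies on chromosome 20 from 46008908 to 46016561, and its higher peaks were outside the gene body. In the TGF-β1 list all 5 of its peaks lay in the flanks. At the higher flank a TGF-β1 peak of height 11 (46018210 to 46018438) overlapped an untreated peak of height 13 (46018238 to 46018512), inside the antisense gene SLC12A5-AS1. At the lower flank a TGF-β1 peak of height 13 overlapped an untreated peak of height 7. No peak of either list lay within 1 kb of either end of MMP9. Of all protein-coding genes, 74.6% in the TGF-β1 list and 75.3% in the untreated list had a peak within 1 kb of an end.

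TIMP1, an inhibitor of the matrix metalloproteinases, lies on chromosome X from 47582436 to 47586789, within the span of SYN1, which is annotated on the other strand. It had 1 TGF-β1 peak of height 4 and 4 untreated peaks of height 5 to 6. The untreated list had a peak of height 6 over its start (47582216 to 47582717), and the TGF-β1 list had none within 1 kb, the nearest being 2.08 kb downstream. At a height of 6 this does not show a difference between the conditions, since 18.4% of untreated peaks of height 5 to 6 had a counterpart over the whole genome.

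The contractile genes differed from each other. ACTA2 encodes smooth muscle actin, the usual marker of the myofibroblast, and lies on chromosome 10 from 88935074 to 88991337, on the minus strand. RefSeq gives it an outer and an inner start, 38.6 kb apart. At the outer start the untreated list had a single strong peak of height 23, 2250 bases wide (88989893 to 88992142). Over the same stretch the TGF-β1 list had peaks of height 10 (88990054 to 88990810) and 13 (88991348 to 88992152), neither strong, with 537 bases between them. The TGF-β1 peaks did not cover the outer ACTA2 start itself, which lay 11 bases outside the second.

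This site is not that of ACTA2 alone. The gene FAS, which encodes a death receptor and runs the other way, has 3 annotated starts here, the nearest 94 bases upstream of the outer ACTA2 start. The untreated peak covered all 3, and the TGF-β1 peaks covered the outer pair of them. At the inner ACTA2 start the untreated list had a peak of height 5, 58 bases upstream, and the TGF-β1 list had none nearer than 5.38 kb. Elsewhere in the window the heights were 4 to 8 in the TGF-β1 list and 5 to 8 in the untreated list. Of ACTA2 peaks, 4 of 12 and 3 of 16 had a counterpart. FAS spans 88964050 to 89017059 and the non-coding gene ACTA2-AS1 spans 88932684 to 88939974. Most peaks of the ACTA2 window in either list overlap FAS or ACTA2-AS1 and cannot be given to ACTA2 alone.

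Over all promoters, a forkhead core went with strong peaks more often than its absence. Within 1 kb of the start, a strong peak was found for 27.8% of 544 promoters with the core and 14.9% of 21639 without it in the TGF-β1 list. In the untreated list it was 29.4% and 16.3%. These shares are descriptive, and base composition and other motifs were not matched.

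TAGLN encodes transgelin, an actin-binding protein of smooth muscle, and lies on chromosome 11 from 117199294 to 117207465. It had 3 TGF-β1 peaks of height 4 to 5 and 2 untreated peaks of height 4 and 6, and none overlapped a peak of the other list. A TGF-β1 peak of height 5 (117199073 to 117199757) lay over its lower-coordinate end and also overlaps LOC100652768. No untreated peak overlapped it, which at this height does not show a difference between the conditions. Of all TGF-β1 peaks of height 5 to 6, 17.8% had a counterpart. As high a window peak was seen at 90.7% of protein-coding genes (TGF-β1 list) and 86.9% (untreated list).

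Peaks near starts were about as frequent as elsewhere in the genome. Of the 6 genes with an annotated start, 5 had a peak within 1 kb of it in the TGF-β1 list, against 70.0% of the 15843 protein-coding genes with one, and 5 in the untreated list, against 71.0%. TIMP1 was without one in the TGF-β1 list and THBS1 in the untreated list, where its strong peak lay 1071 bases upstream. A strong peak within 1 kb of a start was found for THBS1 in the TGF-β1 list and for ACTA2 in the untreated list, 1 of 6 each, against 16.6% and 18.2%. The ACTA2 peak lay at the outer start only and also covered the starts of FAS, so it cannot be given to ACTA2 alone. Of the peaks in the 10 windows, 81 of 114 TGF-β1 peaks and 73 of 101 untreated peaks overlapped a gene body more than 1 kb from an annotated start. For the 4 genes where no start was at hand, the distance was taken from both gene ends. Gene bodies make up most of the length of these windows, and the same share over all genes was not counted.

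Sharing between the lists rose with height in these windows as it did over all peaks. Of TGF-β1 peaks, 40.4% (46 of 114, exact binomial 95% interval 31.3 to 49.95) overlapped an untreated peak by at least 1 bp, and 48.5% of untreated peaks (49 of 101, 38.5 to 58.7) overlapped a TGF-β1 peak. Over the whole lists it was 22.9% and 26.1%. The intervals and limits in this paragraph treat peaks as independent, which peaks of 1 gene are not. FN1 and LOXL2 alone gave 62 of the 114 and 46 of the 101 peaks. They are therefore no test against the whole lists. All 14 TGF-β1 peaks of height 10 or more and all 10 untreated ones had a counterpart, with lower 95% limits of 76.8% and 69.2%, against 84.7% and 82.8% of all peaks that high. Thus no peak of that height in these windows was in 1 list alone. The highest peak without a counterpart had a height of 9 in the TGF-β1 list, in the lower flank of MMP9, and of 8 in the untreated list, at LOXL2 and MMP9.

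Low peaks in these windows had a higher share of counterparts than low peaks in general, a difference that was not tested because peaks of 1 gene are not independent. Under a height of 10, a counterpart was found for 32 of 100 TGF-β1 peaks and 39 of 91 untreated peaks, 32.0% and 42.9%, against 18.4% and 20.0% of all peaks that low. Peaks also lay closer together here, as given above. Over all heights they were wider too, with a median width of 438 bp in the TGF-β1 list and 385 bp in the untreated list. The median over the whole lists was 339 and 358 bp. Closeness and width by themselves raise the number of overlaps, and the part of either in the result was not tested. Among the peaks under a height of 10, FN1 and LOXL2 had a counterpart for 29.6% of their 54 TGF-β1 peaks, and the other 8 genes for 34.8% of 46. In the untreated list the share was 55.0% of 40 at FN1 and LOXL2 and 33.3% of 51 at the other 8 genes.

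**Figure D3:**
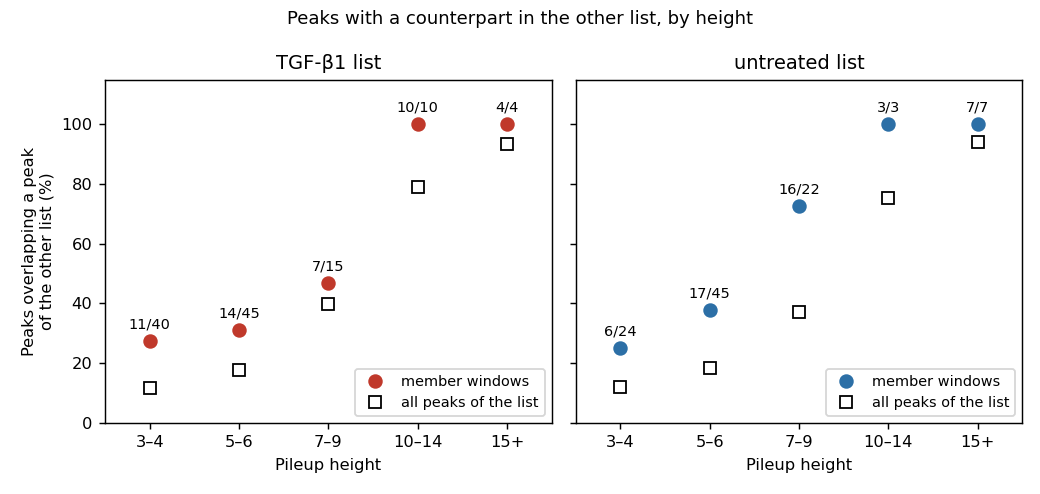
Percent of peaks that overlap a peak of the other list, by pileup height, for the windows of the 10 genes (filled circles, with counts) and for all peaks of the list (open squares), TGF-β1 list left and untreated list right. At heights of 10 and more every peak in the windows had a counterpart, and from 3 to 4 the share was 27.5% in the TGF-β1 list and 25.0% in the untreated list.

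Among other non-collagen genes of the same kinds a larger share had a strong peak, and the difference from the 10 genes was not tested. Of 65 genes in 5 lists, 30 had a strong peak in the body plus 5 kb in the TGF-β1 list (46.2%, exact binomial 95% interval 33.7 to 58.97) and 33 in the untreated list (50.8%, 38.1 to 63.4), 27 of them in both. All protein-coding genes gave 29.9% and 31.1%, and 24.1% in both lists. The 10 genes had a median length of 23.1 kb, the 65 genes 37.7 kb and all protein-coding genes 24.1 kb. A longer window takes in more peaks, and the part of length in the count was not tested. Within 1 kb of a start, 8 and 10 of the 49 genes with an annotated start had a strong peak, against 16.6% and 18.2% of all such genes, so at starts the counts were near the background.

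Among these further genes CALD1 had the highest start peak in both lists. CALD1, caldesmon of the actin filament, had a start peak of height 55 in the TGF-β1 list and 67 in the untreated list, and ACTN1, an actin-bundling protein, had 34 and 34. TAGLN2, a paralogue of TAGLN, had 24 and 17, near IGSF9. VCL, vinculin of focal adhesions, had 10 and 19. Of the 11 genes of that list, 4 had a strong peak in each list. Among 12 matrix receptors, 8 and 7 had a strong peak. The integrin subunit ITGB5 had start peaks of 33 and 45, the collagen receptor DDR1 19 and 26, ITGAV 10 and 11, and ITGA5, of the fibronectin receptor, 9 and 9.

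Of 12 cross-linking and collagen-processing genes, 7 had a strong peak in the TGF-β1 list and 9 in the untreated list. PLOD2, a collagen lysyl hydroxylase, had start peaks of height 23 and 27. The lysyl oxidase relatives LOXL1, LOXL3 and LOXL4 had 12 and 14, 12 and 15, and 12 and 25, and the peak of LOXL3 was also that of DOK1. Of 15 matrix glycoproteins and proteoglycans, 7 and 8 had a strong peak. VCAN, versican, had start peaks of 21 and 15, LAMC1 13 and 16, LAMB1 10 and 22, and SPARC 12 and 11 at places that did not overlap. Of 15 proteases and inhibitors, 4 and 5 had a strong peak. PLAU, urokinase, had peaks of 33 and 13 within 1 kb of its start, but the same TGF-β1 peak also overlapped an untreated peak of 42 that lay 1072 bases from the start, so the order of the lists at PLAU turns with the distance allowed. MMP10 had start peaks of 12 and 7, PLAUR, the urokinase receptor, 12 and 10, and MMP14 10 and 9. The start peaks of ITGAV and LAMC1 in the untreated list likewise overlapped TGF-β1 peaks of 13 and 15 that lay 1493 and 1091 bases from the start. At ITGAV this peak was above the untreated start peak of 11, and at LAMC1 it was below that of 16.

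**Figure D4:**
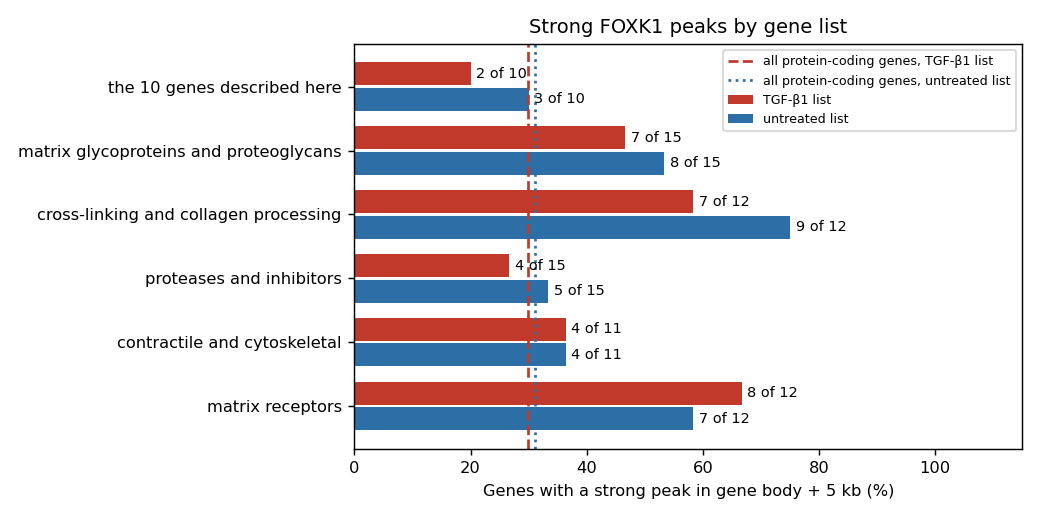
Percent of genes with a strong peak in the gene body plus 5 kb, for the 10 genes and 5 further lists (bars, TGF-β1 list above untreated list, counts beside them), with lines at the 29.9% and 31.1% of all protein-coding genes in the TGF-β1 and untreated lists. The 10 genes stand at 2 and 3 of 10, and the matrix receptors at 8 and 7 of 12.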

How the data were processed

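Each line of the deposited lists holds a peak's position and its signal. This signal is taken to be the authors' pileup height: the lists have no header, and the values are whole numbers of at least 3. The build was hg38 and the tools named are MACS2 2.1.1.20160309 and bcl2fastq 2.17, per the submitters' processing notes. Each FOXK1 library was listed against its own input, per the peak names, and nothing was pooled. The aligner, read filters, peak threshold and read totals are not given in the sources used here, so peak number and height may reflect depth. Starts were read as counting from 0 and may be off by 1 bp. Chromatin was cut with micrococcal nuclease and sonicated, per the labels' protocols.

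Counts over the 24 assembled chromosomes used pandas 2.3.3, numpy 2.4.6 and scipy 1.17.1 under Python 3.11.15, with matplotlib 3.10.9 for figures. Interval counts were tested on simulated data. RefSeq (GRCh38.p14) gave gene positions and, for 15843 protein-coding genes and 6 of the 10 described here, annotated starts with strand. Where no start was at hand, both gene ends were used. Exons were not used here. Intervals on shares are exact binomial and cover counting error only. The genes, lists, motifs and alternatives were chosen with earlier results of these data known. Beside the 10 genes, those named are up to 4 of each further list with the highest TGF-β1 start peak, and genes sharing a named peak. The further lists matched in all 65 cases.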

Additional observations from a re-analysis of the deposited data

How the results depend on the processing

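No paired analysis was possible because each condition had 1 library, and no replicate could be left out. Of 29 alternatives, 17 left their result near the reported value and 12 moved it. The number of the 10 genes with a strong peak in the TGF-β1 list, 2 as reported, was 6 with a minimum height of 10, 1 above the 5000th highest peak, 6 above the 20000th and 1 in the gene body alone. In the untreated list, 3 as reported, it was 6 with a minimum height of 10 and 5 above the 20000th highest peak. When overlap had to cover at least 50% of both peaks, the share with a counterpart was 17.5% (TGF-β1 list) and 19.8% (untreated list). As a separate alternative, with overlap again of at least 1 bp, peaks of height 10 or more had a share of 100% in both lists. Peaks of height 5 or more numbered 74 of 114 in the TGF-β1 list and 77 of 101 in the untreated list, the second counted as near. With the shorter forkhead core TGTTTA, chosen after seeing the data, 2 of the 10 genes had a promoter match, ACTA2 and POSTN, in place of 1. The share of all promoters with that core was 8.57%. Reading starts as counting from 1 changed neither total. Fewer or more peaks pass by construction of the height minimum, and the rest of the causes were not tested. Depth is unknown, so a peak missing from 1 list may only be below its calling threshold.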
